A study of Mus musculus with 14 samples.

Results

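9 genes of pre-B and B cell receptor signalling, Cd79b, Blnk, Blk, Btk, Syk, Il7r, Cd72, Cd22 and Ikzf3, were followed across 14 mouse mammary tumors by bulk RNA sequencing. The 9 genes were chosen by their values in 1 tumor, a nicotinamide (NAM)-treated tumor whose label names experiment 2, in which B lineage genes stand out, so their levels in that tumor and in any contrast that includes it are given as a description, without a test. Each symbol matched 1 of the 56414 rows of the table. M/D-driven tumors were induced in female C57Bl/6 mice aged 6 to 9 weeks, which received a slow-release pellet of 50 mg medroxyprogesterone acetate (MPA) under the skin and 6 gavages of the carcinogen DMBA. AT3 tumors grew from 1000000 cells of a C57Bl/6 mammary carcinoma line placed under the skin, so that all of them descend from 1 line. NAM, an amide form of vitamin B3, was given at 0.5% in the drinking water for 10 days once tumors had reached 0.25 cm2. Of the M/D-driven tumors, 4 were untreated and 4 received NAM, and of the AT3 tumors 3 and 3, with 1 library per tumor. Of them, 7 M/D-driven tumors (4 untreated, 3 NAM-treated) carry the label of experiment 1, NAM-treated M/D tumor 1 is alone in experiment 2, and all AT3 tumors belong to experiment 3.

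In precursor B cells, the immunoglobulin heavy chain is displayed with a surrogate light chain, made of Vpreb and Igll1 proteins, and signals through the Cd79a and Cd79b chains. The kinases Blk and Syk act next to the receptor, the adaptor Blnk brings Syk and Btk together, and Btk activates phospholipase C. Il7r is the receptor chain for interleukin 7, a survival signal for precursor B cells that also serves T cells, while Cd22 and Cd72 dampen receptor signals and Ikzf3 (Aiolos) is a transcription factor of the Ikaros family that rises as pre-B cells mature. Several of these genes are not limited to B cells, since Syk and Btk are also used by myeloid cells and Ikzf3 by T cells. The RNA came from whole tumors, in which fewer cells of a type and less RNA per cell cannot be told apart.

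NAM-treated M/D tumor 1 stood apart from its label as a mammary tumor. In it, 12 of 13 markers of mammary epithelium had their lowest level of the 8 M/D-driven tumors, with 932 normalized counts of the adhesion molecule Epcam against 16166 to 62247 in the other 7. The summed normalized count of the epithelial list was 9305, as compared to 281710 to 1047400. Among all 19425 genes with a median of at least 10 in the other 7 tumors, this tumor was the highest of 8 for 27.9% and the lowest for 28.8%. Depth did not set it apart, with 68406251 reads recovered against 50391585 to 84178009 in the other M/D-driven tumors and 40936868 to 75527467 in AT3 tumors. As it is the only tumor of experiment 2, experiment and tumor cannot be told apart.

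Sequence upstream of the transcription start was available for 6 of the 9 genes (RefSeq, GRCm38.p6, the same build as mm10). From these, 3 stretches that overlap no GENCODE exon are shown, 2 from genes that were high in the experiment 2 tumor, Btk and Cd22, and 1 from Cd72, which was not. The strand is minus for all 3, and capitals mark matches, on either strand, to the letters CAGGTG (an E box), CCCNNGGG (Ebf1), GAGGAA (Spi1), TGGGAA (Ikaros family) or ATGCAAAT (octamer).
Btk, chrX:134583141-134583390: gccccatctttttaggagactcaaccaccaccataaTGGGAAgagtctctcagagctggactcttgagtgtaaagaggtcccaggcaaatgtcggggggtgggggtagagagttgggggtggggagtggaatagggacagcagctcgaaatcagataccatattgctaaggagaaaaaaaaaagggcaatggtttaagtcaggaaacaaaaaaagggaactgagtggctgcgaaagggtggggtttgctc
Cd22, chr7:30879029-30879176: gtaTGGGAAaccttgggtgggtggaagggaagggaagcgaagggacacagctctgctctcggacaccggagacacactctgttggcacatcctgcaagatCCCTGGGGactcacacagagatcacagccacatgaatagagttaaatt
Cd72, chr4:43454629-43454876: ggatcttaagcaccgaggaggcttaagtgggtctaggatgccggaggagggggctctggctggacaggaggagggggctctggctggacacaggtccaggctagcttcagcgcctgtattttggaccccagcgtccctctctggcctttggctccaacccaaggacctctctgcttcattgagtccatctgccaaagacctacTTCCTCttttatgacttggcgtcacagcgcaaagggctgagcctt
The Btk stretch lies within an intron of an annotated noncoding transcript and the Cd22 stretch within introns of longer annotated transcripts, and the Cd72 stretch lies outside any annotated transcript. Stretches of Il7r and Syk outside exons were also available and are not shown. In the full 250 bases before each start, the octamer was found only for Blnk and the Ebf1 letters only for Cd22, among the 6 genes. The Ikaros letters were found only for Btk and Cd22. Blnk, Syk and Il7r, also high in the experiment 2 tumor, had no Ikaros match, and Il7r had no match at all. Over all 32851 such windows, the E box was present in 17.2%, the Ebf1 letters in 11.8%, the Spi1 letters in 23.3%, the Ikaros letters in 21.6% and the octamer in 1.6%. A match is a description of the letters, and binding was not measured.

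The receptor chain Cd79b (chr11:106311341-106314670) showed the widest gap between the experiment 2 tumor and the others. It had 31992 normalized counts there, as compared to 134, 289 and 81.0 in the other NAM-treated M/D-driven tumors and 351, 68.4, 55.6 and 74.0 in the untreated ones. The experiment 2 tumor was thus 395 times the median of the other 7 and 91.1 times the highest of them. Among these 7, untreated tumor 1 held the highest level, and the treated and untreated groups overlapped.

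The kinases and the adaptor were also higher in the experiment 2 tumor, by smaller ratios than Cd79b. Btk (chrX:134542334-134583145), the kinase mutated in X-linked agammaglobulinemia, had 26209 normalized counts in that tumor, against 969, 580 and 966 in the other treated tumors and 1124, 557, 689 and 780 in the untreated ones. That is 33.6 times the median of the 7, which were themselves within a 2.02-fold range. Syk (chr13:52583165-52648791), which docks on the phosphorylated receptor chains, had 16321 normalized counts, against 1713, 1205 and 1373 in the other treated tumors and 1728, 849, 1549 and 1760 in the untreated ones, a ratio of 10.5 to the median. The adaptor Blnk (chr19:40928924-40994535) had 22363, against 5177, 709 and 1037 in treated and 1791, 1895, 1979 and 2795 in untreated tumors, a ratio of 11.8. Blnk spread 7.3-fold within experiment 1, with NAM-treated tumor 2 above and tumors 3 and 4 below all untreated tumors. Blk (chr14:63372837-63417187), a Src-family kinase of B cells, was different. With 116 normalized counts in the experiment 2 tumor, it was 2.65 times the median of the others and 1.09 times the next tumor, untreated tumor 1 at 107. The remaining tumors had 33.7, 48.8 and 18.5 (untreated) and 43.8, 14.7 and 67.4 (NAM-treated).

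Of the 2 surface receptors that restrain B cell signals, Cd22 was far higher in the experiment 2 tumor and Cd72 was not. Cd22 (chr7:30865402-30880342), a lectin that binds sialic acid, had 5295 normalized counts in the experiment 2 tumor, against 289.8, 259.6 and 849 in the other treated and 605, 451, 264 and 483 in the untreated tumors, a ratio of 11.7 to the median of the 7. Cd72 (chr4:43446462-43454629), a lectin-like receptor, had 2612, which placed it below NAM-treated tumors 2 and 4 at 2878 and 3526. NAM-treated tumor 3 had the lowest Cd72 level, 546, and untreated tumors had 1339, 1798, 2323 and 922.

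Il7r and Ikzf3 were again highest in the experiment 2 tumor. Il7r (chr15:9506161-9529876) had 8017 normalized counts there, against 248, 119.7 and 185 in the other treated and 207, 104, 147 and 242 in the untreated tumors, a ratio of 43.3. Ikzf3 (chr11:98464693-98546033) had 3471, against 35.3, 72.7 and 268 in treated and 181, 80.4, 66.1 and 35.4 in untreated tumors, a ratio of 47.7. Among the 7 tumors of experiment 1, Ikzf3 covered a 7.59-fold and Il7r a 2.38-fold range, and for both genes treated and untreated tumors overlapped. In all, 8 of the 9 genes were highest in the experiment 2 tumor, and 7 were at least 10-fold above the median of the other 7, a size reached by 1.60% of all genes. These shares describe the tumor on which the genes were selected, and nothing is read from them.

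**Figure D1:**
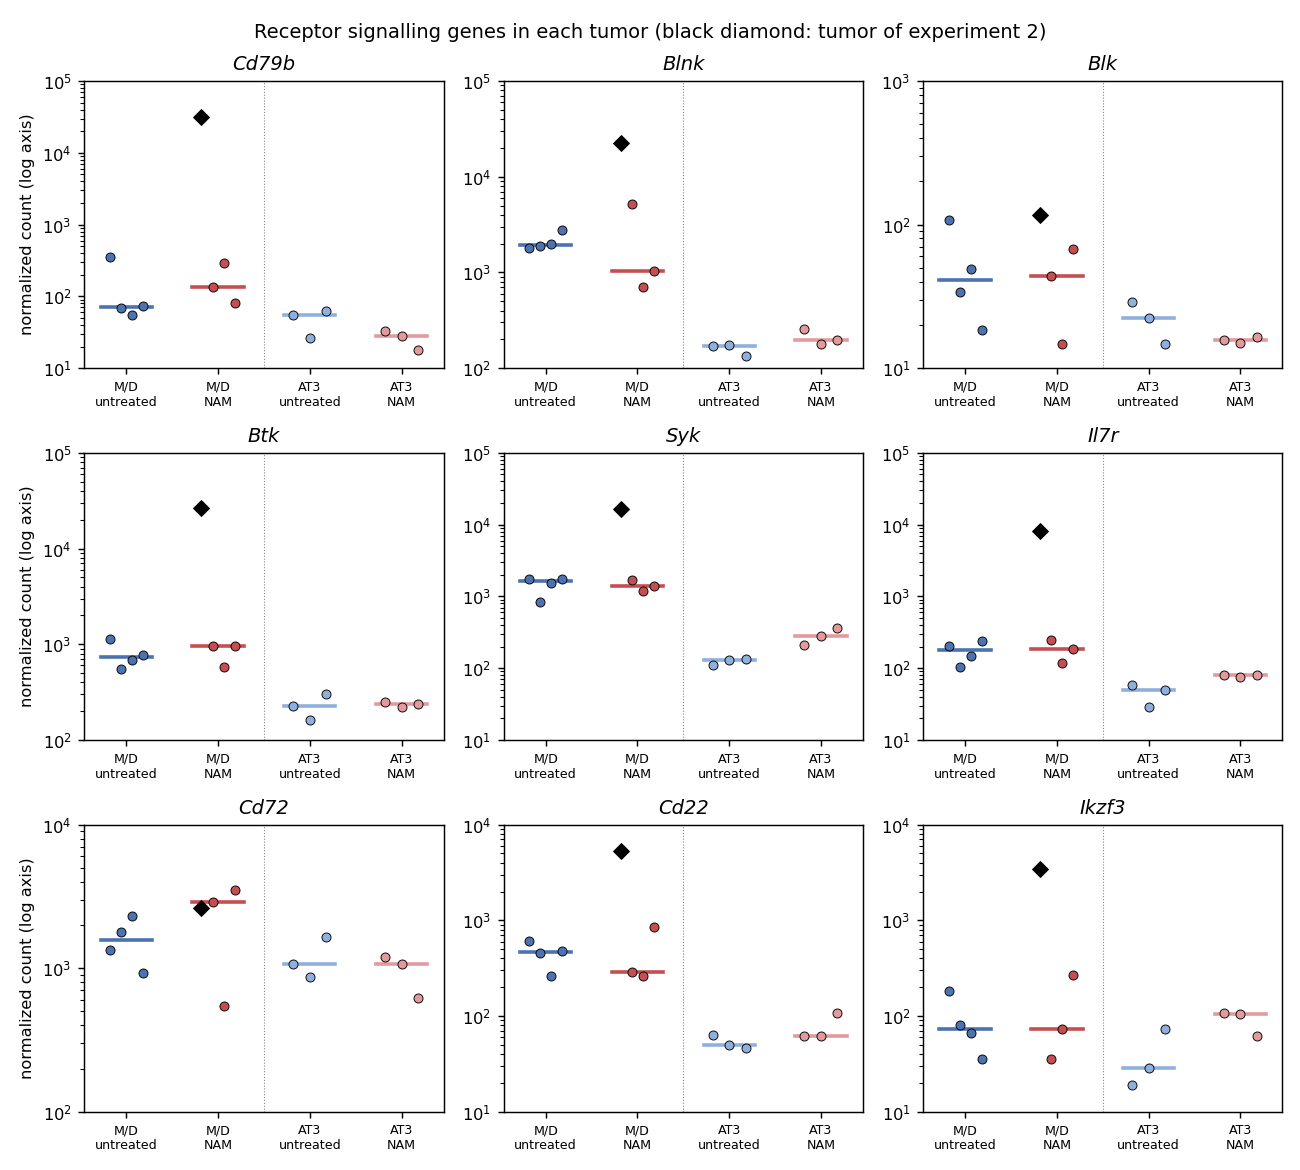
Normalized count (log axis) of each gene in every tumor, by model and treatment; points are single tumors, lines are group medians without the experiment 2 tumor, and the black diamond is that tumor. The diamond lies above every other M/D-driven tumor for 8 genes and below 2 of them for Cd72, and AT3 tumors were normalized apart from M/D-driven tumors.

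Genes that work beside the 9 in the same pathway were listed by function, and the counts that follow leave out the 9 genes. Of all genes with a median of at least 10 in the other 7 tumors, 27.9% were highest in the experiment 2 tumor. A ratio of at least 10 to that median was reached by 1.60%. All 7 other measured genes of the receptor complex and surrogate light chain were highest in the experiment 2 tumor. The surrogate light chain gene Vpreb1 had 67823 normalized counts against 5.19 to 55.5 in the other M/D-driven tumors, and Igll1 had 80368 against 0 to 29.0. Rag2, which is needed for the rearrangement of immunoglobulin gene segments, had 9006, and was at 0 in the other 7. Of genes of the proximal signalling cascade, 15 of 19 were highest in that tumor and 4 were at least 10-fold above the median of the others, with a median ratio of 2.37 over the list. Among them were the scaffold Bank1 (39.2 times) and the phosphoinositide kinase Pik3cd (24.8 times, a row that also carries a microRNA). The T cell kinase Zap70 had a ratio of 0.598 and Vav3 of 0.694. Among inhibitory receptors and phosphatases, 3 of 8 were highest, led by Siglecg at 120 times the median, while Lair1 had a ratio of 0.475.

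Among transcription factors of the lineage, all 14 other than Ikzf3 were highest in the experiment 2 tumor, with a median ratio of 11.9 over the 13 with enough signal in the others, and Pou2af1 (281), Lef1 (125) and Spib (76.2) led. Pax5, which commits cells to the B lineage, had 19417 normalized counts against 0 to 151, in the row of higher mean of the 2 with its symbol. Markers of precursor B cells were highest there for 10 of 14 genes, and those of mature B cells for 9 of 12. Of the mature B cell markers with enough signal in the others, 5 of 8 were at least 10-fold above the median, with a median ratio of 24.6 over the list, and they included the survival factor receptor Tnfrsf13c (85.4), the tetraspanin Cd37 (30.8), Fcrla (25.6) and the chemokine receptor Cxcr5 (23.6). The median ratio of the precursor list was 4.06 over the 9 genes with enough signal in the others. It leaves out Igll1, Rag2, Vpreb2, Vpreb3 and Dntt, whose medians in the other 7 were below 10. In the experiment 2 tumor, Vpreb2 had 23009 and Vpreb3 44064 normalized counts, so the medians of the 2 lists are not compared. Cd74, which guides antigen presentation, was lowest there (0.223). Levels of the mature markers Ms4a1 (269.9 normalized counts, against 0 to 152 in the others) and Fcer2a (52.6, against 1.22 to 126), chosen after their values were seen, stood at 1.78 and 0.419 times the highest of the other 7. Their medians in the others, 7.24 and 5.52, were too low for a ratio to the median. Against the highest of the other 7, Cd37 stood at 21.7, Tnfrsf13c at 8.6, Fcrla at 7.76 and Cxcr5 at 2.49, with Cd40 at 0.638 and Cd74 at 0.092. Of plasma cell genes, 2 of 8 were highest, near the 27.9% of all genes, with Mzb1 at 715 times the median and Sdc1 at 0.0575 times. In the interleukin 7 pathway, 8 of 13 genes were highest, with a median ratio of 1.89, and none reached 10-fold. Socs2, a feedback inhibitor of cytokine signals, had a ratio of 4.9, and the ligand Il7 had 201 normalized counts, within the range of the others (187.5 to 2552). Among ligands, 2 of 9 were highest, also near the share of all genes, with the chemokine Cxcl13 at 85.1 times the median.

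**Figure D2:**
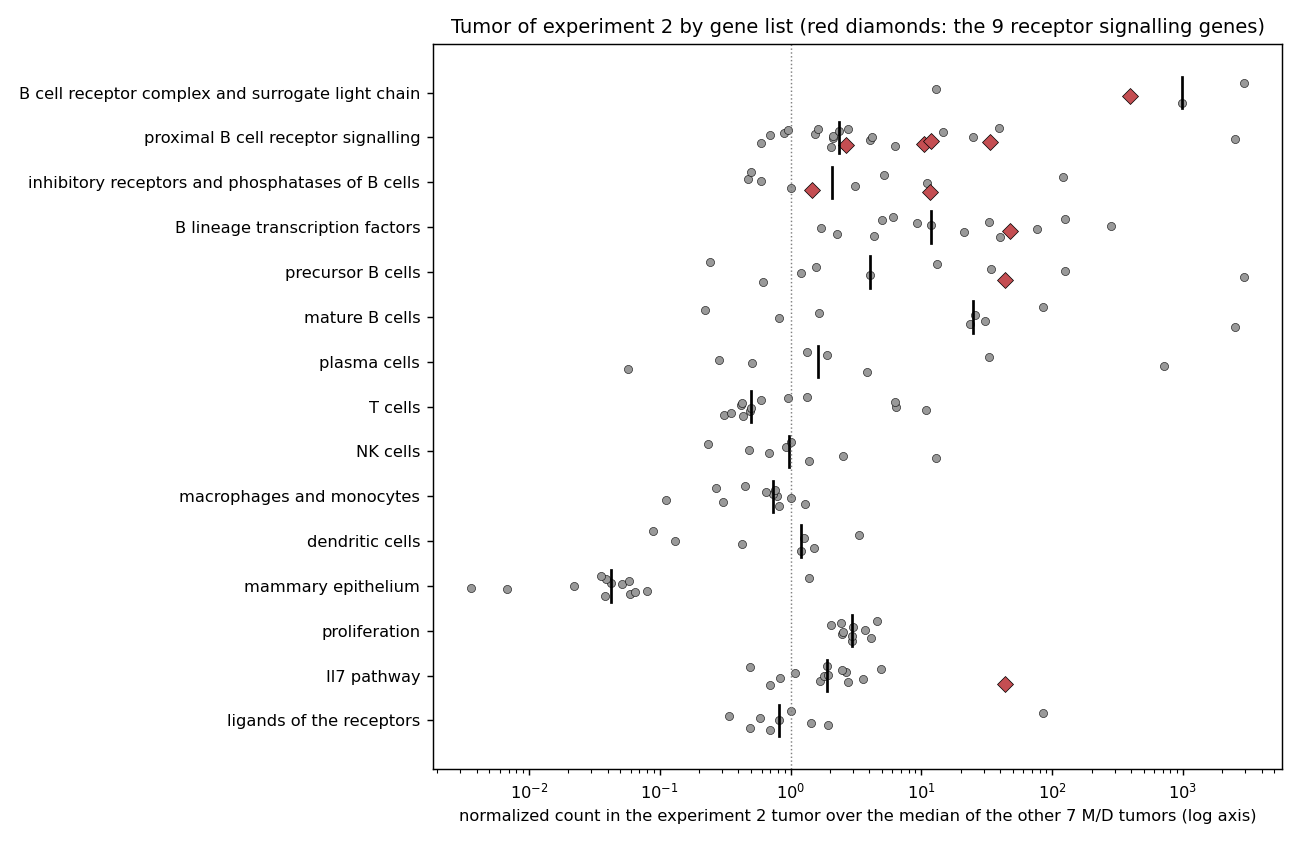
Ratio of the experiment 2 tumor to the median of the other 7 M/D-driven tumors (log axis) for genes of each list with a median of at least 10; red diamonds are the 9 genes, grey points the other genes, and black bars the median of the grey points. The medians of the B lineage lists lie above 1, and that of mammary epithelium is 0.0426.

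Markers of other cell types went in different directions in this tumor. Of all genes with a median of at least 10 in the other 7 tumors, 27.9% were highest in it and 28.8% lowest. All 10 proliferation genes were highest there, with a median ratio of 2.96. Of 13 T cell markers, 6 were lowest and 3 highest, and the defining markers Cd3e (87.4 normalized counts against 172 to 777) and Cd8a (306 against 422 to 2816) were lowest. In contrast, Cd4 (1885 against 229 to 1178, 6.4 times the median), Cd2 (10.8 times) and the kinase Lck (6.31 times) were highest. The summed T cell level was 15077, against 5277 to 12716 in untreated and 6240 to 15596 in the other treated tumors. Of 11 macrophage and monocyte markers, 7 were lowest and 1 was highest, with a summed level of 198340 against 187140 to 280160. NK cell markers had a median ratio of 0.965 and dendritic cell markers of 1.2, with 2 of 8 and 1 of 7 highest. The part of these cell types in the levels of the 9 genes was not tested.

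**Figure D3:**
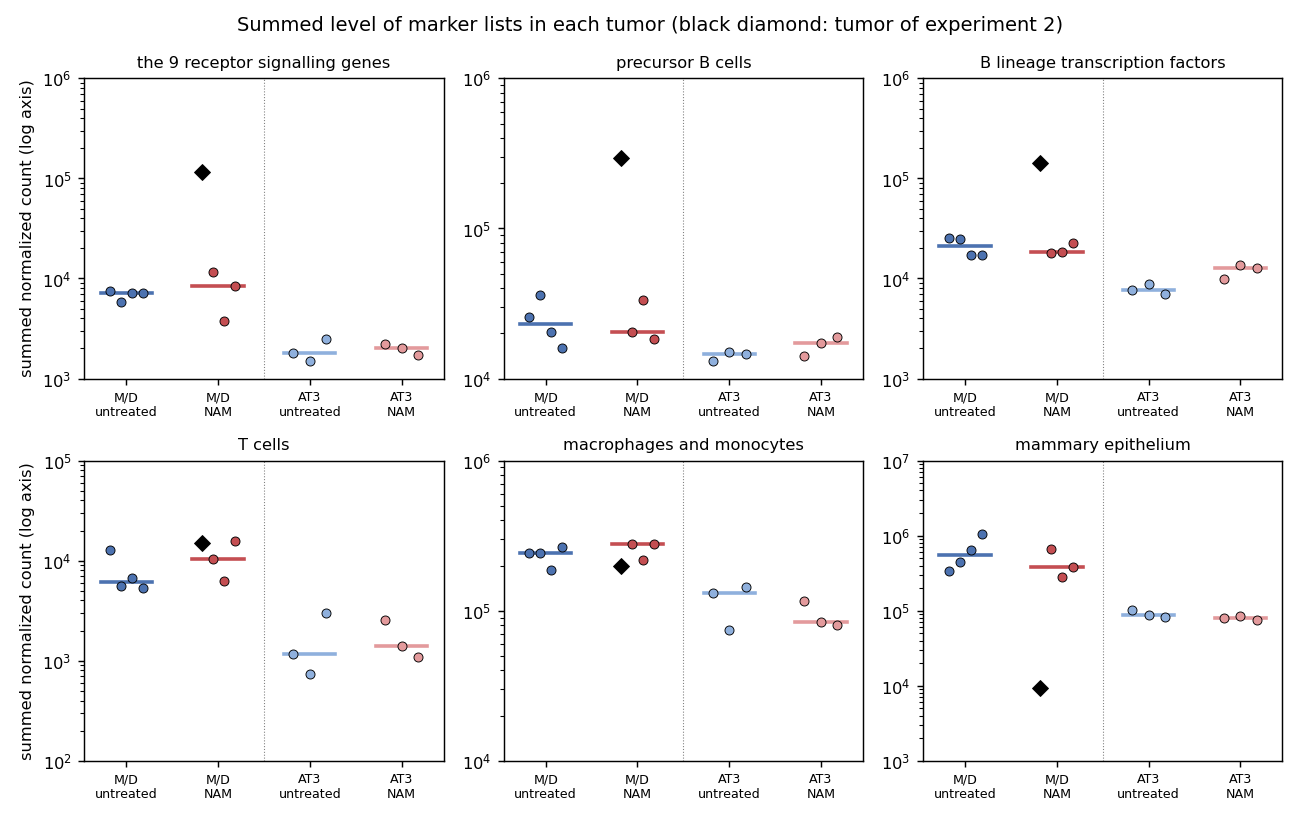
Summed normalized count (log axis) of 6 gene lists in every tumor; points are single tumors, lines are group medians without the experiment 2 tumor, and the black diamond is that tumor. For the 9 genes the sum is 116396 in the experiment 2 tumor and 3795 to 11489 in the other M/D-driven tumors, and for mammary epithelium the diamond is the lowest point.

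The study compared untreated and NAM-treated tumors to explore how NAM acts on them. With all 8 M/D-driven tumors, the change from untreated to NAM-treated, as a log2 fold change on log2(normalized count + 1), was above 0 for 9 of 9 genes, with a median of 0.88 against 0.01 over all genes. The values were 2.49 for Cd79b, 0.55 for Blnk, 0.16 for Blk, 1.35 for Btk, 0.88 for Syk, 1.46 for Il7r, 0.37 for Cd72, 0.82 for Cd22 and 1.53 for Ikzf3. This is the contrast from which the genes were selected, and it is not tested. Without the experiment 2 tumor, the median was 0.08, and 6 of 9 values were above 0.

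In the 7 M/D-driven tumors of experiment 1, differences with NAM were within the spread between tumors for the 8 genes tested. All 9 genes passed the filter on low values (a group mean of at least 10), and Cd22, which the study named on all 8 tumors, was described and not tested (log2 fold change of -0.11). None of the 8 was called higher or lower by limma (a p up to 0.05 together with a 1.5-fold difference), as compared to 2.85% of 21489 genes called higher and 2.33% called lower, and none had an unadjusted p of at most 0.05. The edgeR and DESeq2 tests on recovered reads called none of the 8 at an adjusted p of 0.05 either. The log2 fold changes (± SE) were 0.55 ± 0.74 for Cd79b, -0.41 ± 0.63 for Blnk, -0.26 ± 0.74 for Blk, 0.10 ± 0.31 for Btk, 0.00 ± 0.30 for Syk, 0.08 ± 0.41 for Il7r, 0.23 ± 0.66 for Cd72 and 0.21 ± 0.79 for Ikzf3. Treated and untreated tumors overlapped for all 9 genes, while 6.92% of genes did not overlap. Single tumors decided some values. Without NAM-treated tumor 2, Blnk was called lower (log2 fold change of -1.28, limma adjusted p = 0.30), and without NAM-treated tumor 3, Cd72 was called higher (1.08, adjusted p = 0.88).

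In AT3 tumors, 2 of the 9 genes were higher with NAM, Syk and Ikzf3, and none was lower. All 9 passed the filter on low values. Over all 19281 genes tested, 12.2% were called higher and 10.9% lower. At a Benjamini-Hochberg adjusted p of 0.05, limma called none of the 9 genes, edgeR called none and DESeq2 called 1, Syk. Syk had 110.1, 128 and 135 normalized counts in untreated tumors and 213, 282 and 363 in NAM-treated ones, so that every treated tumor lay above every untreated one. Its log2 fold change was 1.17 ± 0.29 (SE; limma adjusted p = 0.17). The Syk adjusted p ranged from 0.0072 to 0.55 over the alternatives, and fell to 0.049 without untreated tumor 2 and to 0.024 without NAM-treated tumor 1. Ikzf3 had 18.8, 28.4 and 74.1 against 107, 105 and 61.1, with overlap between the groups, and a log2 fold change of 1.34 ± 0.53 (adjusted p = 0.18). The Ikzf3 call was lost in edgeR (1.16) and when untreated tumor 1 (0.93), untreated tumor 2 (1.21), NAM-treated tumor 1 (1.21) or NAM-treated tumor 2 (1.22) was left out.

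Blnk and Il7r had non-overlapping groups in AT3 tumors without passing the thresholds. Il7r had 58.0, 28.4 and 48.8 normalized counts in untreated and 81.4, 74.3 and 81.0 in treated ones, with a difference of 0.85 ± 0.38 on the log2 scale (adjusted p = 0.21). It was called higher with TMM factors (0.87) and without untreated tumor 1 (1.06). Blnk had 170, 176 and 133 against 254, 178 and 197, a difference of 0.38 ± 0.28 (adjusted p = 0.40). With Syk, these make 3 of 9 genes in which every treated tumor was above every untreated one, as compared to 11.7% of all genes, and 0 in the other direction, as compared to 11.0%.

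For the other members, treated and untreated AT3 tumors overlapped. Cd79b had 55.1, 26.4 and 63.5 normalized counts in untreated and 32.8, 28.2 and 18.2 in treated ones, a log2 difference of -0.80 ± 0.49 (adjusted p = 0.33). Without untreated tumor 2, it was called lower (-1.17, adjusted p = 0.096). Blk had 29.0, 22.3 and 14.7 against 15.8, 15.1 and 16.5 (-0.40 ± 0.51), Btk had 229, 161 and 299.5 against 252, 223 and 239 (0.09 ± 0.29), Cd72 had 1075, 872 and 1648 against 1191, 1074 and 624 (-0.32 ± 0.33), and Cd22 had 63.8, 49.8 and 46.4 against 62.0, 61.1 and 107 (0.48 ± 0.38). The adjusted p-values of these 4 ranged from 0.43 to 0.86. The median change of the 9 genes was 0.38, beside -0.05 over all genes tested.

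Transcript length moved with the AT3 comparison. Across the genes tested with a known length, the log2 fold change correlated with length with a Spearman rho of 0.588 in AT3 tumors and -0.063 in M/D-driven tumors of experiment 1, where genes of a comparison share the same libraries. With each tumor's trend with length removed, 7.99% of genes were called higher. Syk remained higher, with a log2 fold change of 0.66 (limma adjusted p = 0.21), whereas Ikzf3 did not pass the thresholds (0.96, adjusted p = 0.35). Il7r had 0.71, Blnk 0.01 and Cd79b -0.32 in this setting, and the median of the 9 genes was 0.23, beside 0.02 over all genes.

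**Figure D4:**
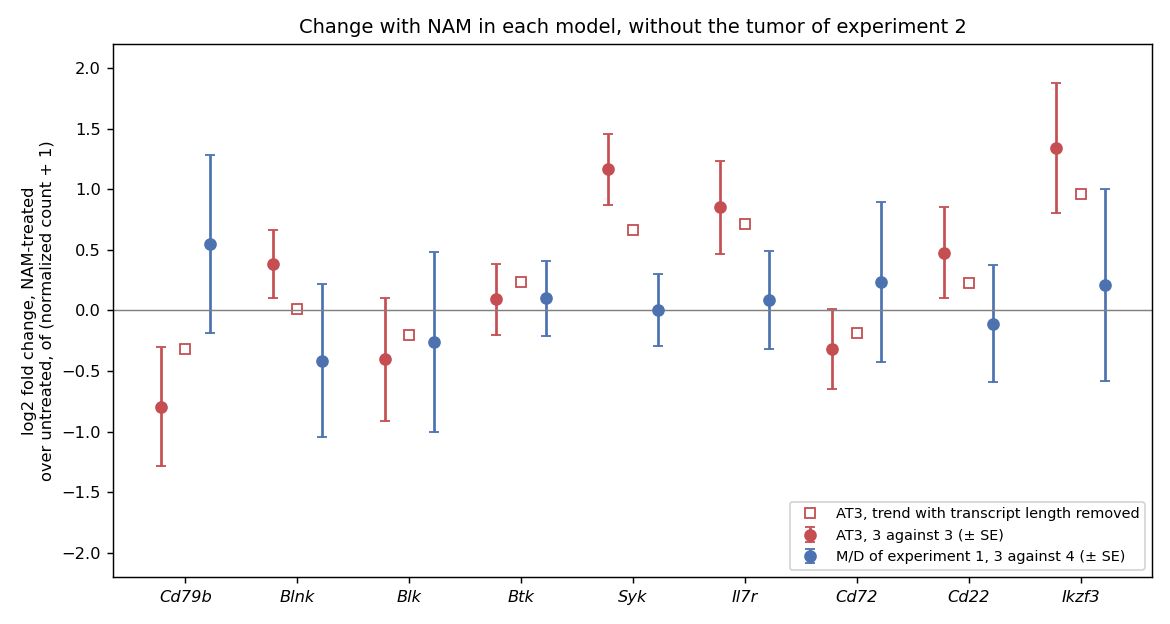
Log2 fold change of NAM-treated over untreated tumors for each gene, with the SE of limma as error bars, in AT3 tumors (red circles) and in M/D-driven tumors of experiment 1 (blue circles); open squares are AT3 values after the trend with transcript length was removed. Syk is at 1.17 in AT3 and 0.00 in M/D-driven tumors, and 0.66 after removal of the trend.

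An interaction term over 13 tumors set the change with NAM in one model against that in the other, and Syk was the only one of 8 genes with a p of at most 0.05. Its change was 1.16 ± 0.42 larger in AT3 than in M/D-driven tumors of experiment 1 on the log2 scale (limma adjusted p = 0.21), and 17.0% of 22538 genes had a p of at most 0.05. The trend with transcript length was not removed in this fit. In AT3 tumors alone, its removal took the change of Syk from 1.17 to 0.66. Differences for the other 7 genes ranged from -1.34 ± 0.94 (Cd79b) to 1.13 ± 1.04 (Ikzf3). Leaving out untreated M/D tumor 1 added Cd79b (-1.94), leaving out NAM-treated M/D tumor 2 added Blnk (1.66), and leaving out NAM-treated M/D tumor 3 added Cd72 (-1.40). As all AT3 tumors belong to experiment 3, model and experiment cannot be told apart.

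The rest of the pathway in AT3 tumors included genes in both directions. The counts below stand beside 12.2% of all genes tested called higher and 10.9% called lower. Of the proximal signalling list without the 9 genes, 5 of 19 were higher and 1 was lower, the kinase Prkcb had a log2 fold change of 1.35 and did not pass, and 2 were higher and 2 lower once the length trend was removed. Of the B lineage factors tested, 5 of 12 were higher and 0 were lower (4 and 0 without the length trend). Ikzf1 changed by 1.42 (adjusted p = 0.17) and Ebf1 by 1.38 (adjusted p = 0.17). Pou2f2 (the row of higher mean of the 2 with its symbol), which did not pass, had 0 to 28.4 normalized counts in untreated and 26.7 to 57.4 in treated tumors. Of precursor B cell genes, 2 of 11 were higher and 1 was lower, in a row shared with another gene. Of the Il7 pathway 4 of 13 were higher and 1 was lower, and of inhibitory receptors 1 of 8 and 0. Of mature B cell genes, 0 of 11 were higher and 1 was lower, and of the receptor complex 0 of 4 and 1. Plasma cell genes had 1 of 7 higher and 0 lower, and ligands 2 of 8 higher and 2 lower. Markers of other cells were counted in the same way. Macrophage markers were higher for 4 of 11 and lower for none, with a median log2 fold change of -0.23 over the list. Their summed normalized counts overlapped, at 74306 to 144030 in untreated and 80553 to 115340 in treated tumors. T cell markers were higher for 1 of 13, with sums of 742 to 2966 and 1095 to 2553. NK cell markers had 0 of 8 in either direction, dendritic cells 1 of 7 higher, proliferation 1 of 10 higher, and mammary epithelium 2 of 13 in each direction. Once the length trend was removed, 7.99% of genes with a known length were called higher, and mature B cell genes had 2 higher and 1 lower. The receptor complex, inhibitory receptor and epithelial lists then had none. The Il7 pathway had 2 higher and 1 lower, ligands 1 and 0, macrophages 3 and 0, and proliferation 2 and 1. Counts of precursor B, plasma, T, NK and dendritic cell lists were unchanged. Rag2, Vpreb2, Vpreb3, Ighd, Pax5, Spib, Tnfrsf17 and Cd40lg did not pass the filter in AT3 tumors. The part of macrophages and T cells in the changes of Syk and Ikzf3 was not tested.

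In M/D-driven tumors of experiment 1, the same lists held few calls, beside 2.85% of all genes called higher and 2.33% called lower. Proximal signalling, receptor complex, inhibitory receptor, precursor B cell, plasma cell, T cell, macrophage, dendritic cell, proliferation, Il7 pathway and ligand lists had none in either direction. Among transcription factors 1 of 14 was lower (Bcl11a, -1.36), among mature B cell markers 1 of 11 was higher (Cd55, 0.67), among NK cell markers 1 of 8 was higher (Klrb1c, 1.27) and among epithelial markers 1 of 13 was lower (Cdh1, -0.74). These 4 genes were named after their values were seen. Log2 fold changes of the 8 NK cell markers ranged from 0.73 to 1.58, with a median of 1.16, and the list was not tested as a set.

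Levels in the models are given side by side, as reads per 1000000 reads recovered (counts scaled to depth), because the values were normalized within each model. Medians in the 7 M/D-driven tumors of experiment 1 and the 6 AT3 tumors were 31.8 and 3.7 for Blnk, 26.4 and 3.43 for Syk, 7.13 and 1.13 for Cd22, 12.1 and 4.85 for Btk, and 30.2 and 20.5 for Cd72. For the remaining genes they were 3.56 and 1.26 for Il7r, 1.56 and 0.635 for Cd79b, 0.714 and 0.346 for Blk, and 1.35 and 1.28 for Ikzf3. Ranges did not overlap between models for Blnk (13.9 to 84.4 against 2.17 to 5.11), Syk (14.2 to 30.3 against 1.74 to 8.06), Cd22 (4.61 to 16.3 against 0.755 to 2.37) and Btk (9.35 to 19.7 against 3.27 to 5.31), and they overlapped for the other 5 genes. For Il7r the overlap was small, as its lowest value in experiment 1 was 1.75 and its highest in AT3 tumors 1.8. In the experiment 2 tumor, Cd79b reached 551, Btk 451 and Blnk 385 on this scale. No test was made across models. The share of all genes without overlap between models was not counted, so nothing is read from this separation.

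Without the experiment 2 tumor, correlations between the 9 genes differed in sign and size. Over the other 13 tumors, with log2 values centered within each group, 28 of the 36 pairs of genes had a correlation (Pearson r) above 0. The median was 0.267, and values ranged from -0.565 for Blnk and Ikzf3 to 0.809 for Btk and Il7r. Other pairs of genes were not examined for comparison. These are descriptions over tumors that share libraries and group means, and no p is given. The named genes most like each one, among 14529 with a mean of at least 50, differed from gene to gene. Btk was closest to Rac2 (r = 0.926), Ccr7, Pilra, Naaa and Lcp2, genes of leukocyte signalling and migration among them. Il7r was closest to Fcgr2b (0.922), Mpp1, Actr3, Ms4a6d and Stk17b, and genes similar to Cd72 included Ch25h (0.933), Arrb2, Abi3 and Mir6961. For Ikzf3, similar genes included the T-box factor Tbx21 (0.959), Grap2, Gvin1 and Gm4070. Blnk was closest to Fgfbp1 (0.953), Cd3eap, Tgfb1, Cxcl5 and the keratin Krt36. Syk was closest to Mroh6 (0.947), Ptpn13, Heatr3, Megf9 and Gfm2. Cd79b was closest to Pdia6 (0.923), Fam72a, BC026585, Fut10 and Lbr, Blk to Clcc1 (0.897), Fuz, Fam78a, a row that joins Naa10 and Arhgap4, and Sirt4, and Cd22 to Gfra2 (0.855), Lrrn3, Ephx1, Aldh4a1 and Aldh3b1.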

How the data were processed

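Bulk mRNA libraries (TruSeq, paired-end) of 14 tumors were analysed. Per the labels and the study's methods, the authors mapped reads with STAR 2.4.0 on mm10, counted reads on constitutive regions of the genes of Mouse FAST DB and normalized them with DESeq2. The deposited values are this normalized signal (normalized counts), without a filter on low genes. All values were whole multiples of 1 step per tumor (100% within 0.01 reads), so reads were recovered, and 40936868 to 84178009 per tumor set the precision of counting, which is part of the spread between tumors. The median ratio of a tumor to its own model was 0.975 to 1.02, so comparisons were made within models.

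limma 3.58.1 (R 4.3.3), with a mean-variance trend, was fitted, two-sided, on the log2 scale after adding 1 to normalized counts, keeping genes whose mean reached 10 in any group. Calls need a p up to 0.05 and a 1.5-fold difference, as in the study, and Benjamini-Hochberg adjusted p-values cover all genes tested. On this scale the change of low genes is understated. The study's methods give numbers of mice for these data, with 1 library per tumor, and the p-values measure the spread between these tumors. Groups, replicates and experiments were read from the labels. Members and gene lists were chosen with earlier results of these data known. All 9 genes are named, with, from each list, genes of highest or lowest ratio in the experiment 2 tumor or largest AT3 change, and the 5 genes of most similar pattern per member. Other genes named were chosen after their values were seen. Some genes that this rule would name are not reported here. Rag1 is a row shared with another gene, and Ighm one shared by 20 immunoglobulin symbols, so neither is named in the report. Both rows are still counted in their lists. Alternatives were pseudocounts of 0.5 and 5, filters, TMM factors, a replicate block, edgeR 4.0.16 and DESeq2 1.42.0 on recovered reads, removal of the trend with transcript length (longest GENCODE transcript, known for 85.2% of genes tested, spline with 4 degrees of freedom), and each tumor left out. Scripts were tested on simulated data. Python 3.11.15, pandas 2.3.3, numpy 2.4.6 and matplotlib 3.10.9 were used.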

Additional observations from a re-analysis of the deposited data

Results flagged for a closer look

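In untreated M/D-driven tumors, 1 of the 9 genes had a tumor far from the others of its group (Dixon's test at 95% on log2 values, with a critical value of 0.829). It was Cd79b in untreated M/D tumor 1, the highest of its group, where the gap to the next tumor took 0.846 of the group's range. Chance alone gives this in about 1 in 20 groups. The NAM-treated M/D-driven tumors were not examined in this way, since the genes were chosen by their values in 1 of them.

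The change of Syk with NAM was 1.16 larger on the log2 scale in AT3 tumors than in M/D-driven tumors of experiment 1 (interaction term of limma, adjusted p = 0.21, past 0.05 without adjustment). In AT3 tumors, 3 of 3 treated tumors were above every untreated one. Syk gave 1 of 8 interaction terms examined, as compared to 17.0% of 22538 genes with an unadjusted p of at most 0.05. The trend with transcript length was not removed from these terms.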

How the results depend on the processing

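The median ratio of the 9 genes in the experiment 2 tumor was 11.8, 11.2 under TMM factors and 21.6 against the other 3 NAM-treated tumors. The all-tumor M/D median ranged from 0.08 to 1.34 when single tumors were left out, lowest without the experiment 2 tumor.

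In AT3 tumors, members called higher numbered 1 with edgeR, 1 without the length trend and 0 at an adjusted p of 0.05, and 1 to 2 when a tumor was left out (0 to 1 lower). All genes called higher and lower numbered 1312 and 1352 without the length trend, 0 and 1 at an adjusted p, 904 to 3459 and 714 to 3310 with a tumor left out. Btk ranged from -0.14 to 0.30. In M/D-driven tumors of experiment 1, genes called higher numbered 1236 with no filter, 328 with a group mean of at least 50, 922 with edgeR, 405 without the length trend, and higher and lower 1032 and 790 with DESeq2, 0 and 0 at an adjusted p, 344 to 1322 and 323 to 1167 with a tumor left out (members 0 to 1 in each direction). Signs changed for Blnk, from -0.41 to 0.12 in both edgeR and DESeq2, and for Syk, from 0.00 to -0.026 and -0.047. With a tumor left out, Blnk ranged from -1.28 to 0.16, Blk from -0.72 to 0.34, Btk from -0.051 to 0.34, Syk from -0.24 to 0.12, Il7r from -0.16 to 0.36, Cd72 from -0.27 to 1.08 and Ikzf3 from -0.58 to 0.86. For the difference between models, genes with p of at most 0.05 ranged from 2155 to 5286 and members from 1 to 2, with Blk at -0.75 to 0.31 and Btk at -0.25 to 0.20.

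A block by replicate number also drops untreated M/D tumor 1, which has no same-numbered treated tumor in experiment 1, and its fold changes equal those without that tumor. With this block, higher and lower calls in experiment 1 numbered 199 and 250, with Blk at 0.17, genes of the difference between models numbered 2468 with 0 members (Syk 1.07, not past 0.05, but past it without that tumor and with no block), and the AT3 member calls were the same, with 1296 genes at an adjusted p of 0.05. Same-numbered tumors deviated from their group means with correlations of -0.47 to -0.27 in experiment 1 and -0.16 to 0.26 in AT3 tumors, so the numbers only name the tumors. Causes were not tested. Groups of 3 or 4 tumors and low counts of Blk, Cd79b, Il7r and Ikzf3 in AT3 tumors limit precision.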
